A study of Mus musculus with 6 samples.

Results

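The interleukin family was followed as 82 genes among the 25206 probe sets of 6 single-colour arrays, each hybridised with the RNA of macrophages grown from mouse bone marrow. Members are all genes whose symbol starts with Il and a digit, and each has 1 probe set. By role they are 37 ligands, 39 receptor chains, 4 secreted inhibitors and 2 other products. The rule uses symbols and no measured value.

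Per the labels, 3 samples received JG-98 at 0.3 micromole for 16 hours, and 3 samples were untreated controls. JG-98 is a small molecule that inhibits Hsp70, a family of chaperones that bind unfolded proteins. All 6 samples are marrow macrophages isolated in the same way. The labels give the dose with no volume, name no vehicle for the controls, and give neither the strain nor the sex or age of the mice. Whether the replicates are different mice or cultures is not stated, and the p-values below therefore cover only the variation among these 6 samples, part or all of which may be technical.

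Interleukins are secreted proteins through which leukocytes and their neighbours signal. Most act through receptors built of a chain that binds the ligand and a second chain that is shared between several ligands, and receptors of the IL-6, IL-10 and common gamma families pass the signal on through JAK kinases and STAT transcription factors. IL-1 and IL-18 receptors instead use the adaptor MyD88 and IRAK kinases. Macrophages are both a source and a target: resting cells carry receptors for IL-4, IL-6 and IL-10, and most of their own interleukin genes are switched on only by microbial or inflammatory signals.

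On the log2 scale, array medians lay between 4.08 and 4.24. JG-98 replicate 3 stood apart, correlating with the other arrays at 0.992 to 0.993, while the other 5 correlated with each other at 0.995 to 0.996. All 8 measured macrophage markers of 9 listed, Csf1r, Cd68 and Mertk among them, lay well above the dim range defined below, and their mean level was 9.99 to 10.06 on the JG-98 arrays and 10.09 to 10.14 on the control arrays. C1qa and Mertk were lower at an unadjusted p under 0.05. That is 25% of the 8, beside 12.8% of all probe sets well above the dim range and 8.32% of all. The part of this shift in the results below was not tested. None of the markers of T and NK cells (9), B cells (6), mast cells and basophils (8), neutrophils (8), dendritic cells (7) or stromal and epithelial cells (8) lay well above the dim range. At an unadjusted p under 0.05, 3 of these 46 markers differed, beside 8.32% of all probe sets and 5.13% of those in the dim range. The B cell marker Ms4a1 and the stromal Col3a1 were higher and the stromal Dcn lower with JG-98, all 3 in the dim range.

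No detection p-value was used, so a dim range was set from genes assumed to have little or no transcript in macrophages. They were taken by symbol, and whether some are expressed in these cells was not tested. The 1368 olfactory, vomeronasal and trace amine receptor genes on the array had a 95th percentile of 3.82 for their mean over the 6 arrays. A member is called well above the dim range from 4.82 upward, 1 log2 unit higher, and 41.8% of all probe sets lie there. Probe sets differ in how strongly they bind their transcript, so a level says whether a gene stands clear of this range and does not rank genes by abundance.

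Receptor chains made up most of the members that stood clear of the dim range. Of the 39 receptor chains, 13 (33.3%) lay well above it, against 4 of the 37 ligands (10.8%), 2 of the 4 inhibitors and 0 of the 2 other products. The 13 receptor chains were Il10ra and Il10rb of the IL-10 receptor, Il6ra and Il6st of the IL-6 receptor, Il7r, Il2rg, Il4ra and Il21r of the common gamma group, Il13ra1, Il3ra, Il17ra, Il12rb2 and Il1rap. The ligands were Il15, Il18, Il27 and Il16, and the inhibitors were Il1rn and Il18bp. Just above the limit lay Il16 at 5.11, Il1rap at 5.56 and Il3ra at 5.57, and just below it Il17d at 4.818, Il15ra at 4.811 and Il4i1b at 4.75.

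**Figure D1:**
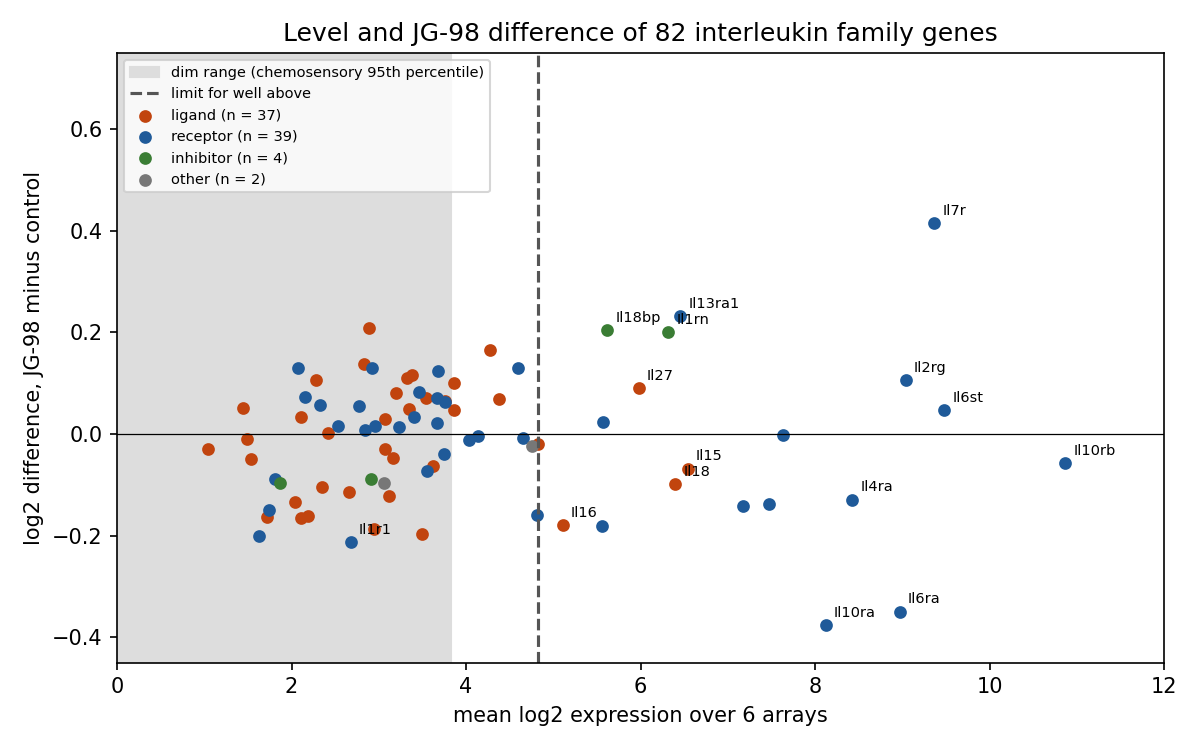
Mean log2 expression over the 6 arrays (horizontal) against the log2 difference, JG-98 minus control (vertical), with 1 point per gene for 37 ligands, 39 receptors, 4 inhibitors and 2 other products. Grey marks the dim range up to 3.82 and the dashed line the limit of 4.82. Receptors make up 13 of the 19 points to the right of that line, and Il7r, Il6ra and Il10ra lie farthest from 0.

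With JG-98, no member passed limma at an adjusted p under 0.05 over all 25206 probe sets, where 10 probe sets, 0.0397% of all, did. At an unadjusted p under 0.05 there were 6 members, 2 higher (Il7r and Il1rn) and 4 lower (Il10ra, Il6ra, Il1r1 and Il16), which is 7.32% of the family against 8.32% of all probe sets (3.84% higher and 4.48% lower). Over all levels the share in the family is near that of the array, but 63.4% of members are dim, beside 44.9% of all probe sets. Among the 19 members well above the dim range there were 5 (26.3%), 2 higher and 3 lower. Of all 10546 probe sets at that level, 12.8% passed, 5.46% higher and 7.31% lower, and 0.0853% passed at an adjusted p under 0.05. At an unadjusted p under 0.05 there was 1 of the 52 dim members (Il1r1, 1.92%), beside 5.13% of all dim probe sets.

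The leading differences lay in 3 ligand-binding receptor chains, Il7r, Il6ra and Il10ra. Each had all 3 JG-98 values on one side of all 3 control values, at differences of 1.27- to 1.33-fold. Such separation held in 9 of the 19 members well above the dim range (47.4%), 4 higher and 5 lower. It held in 26.3% of all probe sets at that level, 11.3% higher and 15% lower. Over all levels it held in 11 of 82 members (13.4%), 5 higher and 6 lower, against 15.6% of all probe sets, 7.12% higher and 8.44% lower. In cells measured in bulk, fewer cells carrying a transcript and less transcript per cell cannot be told apart.

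Il10ra encodes the chain that binds IL-10, the main cytokine that restrains macrophage activation. Its log2 level was 8.002, 7.92 and 7.87 on the JG-98 arrays, against 8.32, 8.29 and 8.32 on the control arrays. The groups did not overlap, and the control values lay within a narrow band. The difference, JG-98 minus control, was -0.38 ± 0.066 (SE, n = 3 per group), which is 1.30-fold lower, with a limma adjusted p of 0.24. Il10rb, the second chain, which IL-10 shares with IL-22 and lambda interferons, was at 10.85, 10.89 and 10.78 on the JG-98 arrays and at 10.92, 10.90 and 10.87 on the control arrays. Its difference was -0.06 ± 0.065, with a 95% interval of -0.21 to 0.10. Il10 itself, the ligand, was in the dim range, at 3.32, 3.46 and 3.39 on the JG-98 arrays and 3.69, 3.74 and 3.33 on the control arrays, and the groups overlapped.

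Il6ra, the chain that binds IL-6, was also lower on every JG-98 array. Its level was 8.78, 8.81 and 8.79 on the JG-98 arrays, against 9.08, 9.19 and 9.15 on the control arrays. The difference was -0.35 ± 0.064 (SE, n = 3 per group), or 1.27-fold lower, with a limma adjusted p of 0.26. Il6st encodes gp130, the signalling chain that IL-6 shares with IL-11, LIF, oncostatin M and IL-27. It was at 9.48, 9.52 and 9.50 on the JG-98 arrays and at 9.44, 9.50 and 9.42 on the control arrays, a difference of 0.05 ± 0.062 with a 95% interval of -0.10 to 0.19. Il6, at 1.45, 1.49 and 1.45 on the JG-98 arrays and 1.24, 1.54 and 1.46 on the control arrays, lay in the dim range on every array, so neither group showed a level of the ligand above that of chemosensory receptor genes.

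Il7r lay in the opposite direction. It encodes the IL-7 receptor alpha chain, best known from lymphocytes, which also forms part of the TSLP receptor. Its level was 9.66, 9.64 and 9.43 on the JG-98 arrays, against 9.17, 9.19 and 9.12 on the control arrays, with JG-98 replicate 3 closest to the controls. The difference was 0.42 ± 0.082 (SE, n = 3 per group), or 1.33-fold higher, with a limma adjusted p of 0.29. Without JG-98 replicate 3 it was 0.49, with a limma adjusted p of 0.23. T and NK cell markers averaged 3.426 to 3.602 on the JG-98 arrays and 3.441 to 3.571 on the control arrays. Of these 9 markers, 6 were in the dim range, Cd3e and Cd3d among them. The other 3, Klrb1c, Gata3 and Cd4, lay between it and the limit and differed by -0.22 ± 0.13, 0.04 ± 0.14 and 0.02 ± 0.19. B cell markers averaged 2.73 to 3.16 on the JG-98 arrays and 2.92 to 2.99 on the control arrays. Of these 6, 5 were dim and 2 had a difference above 0, the dim Ms4a1 among them at 0.28 ± 0.067. The part of other cells in the Il7r difference was not tested.

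The partner of Il7r is Il2rg, the common gamma chain that receptors for IL-2, IL-4, IL-7, IL-9, IL-15 and IL-21 share. It was at 9.05, 9.23 and 8.99 on the JG-98 arrays and at 9.01, 8.99 and 8.95 on the control arrays, with overlap. The difference was 0.11 ± 0.082, with a 95% interval of -0.09 to 0.30. The ligand gene Il7 was in the dim range, at 1.99 to 2.31 on the JG-98 arrays and 1.99 to 2.44 on the control arrays.

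Whether these 3 genes pass depends on the settings of the fit. With the 10546 probe sets well above the dim range tested alone, limma gave adjusted p-values of 0.025 for Il10ra, 0.027 for Il6ra and 0.044 for Il7r, and with an intensity trend over all probe sets 0.010, 0.0066 and 0.015. With probe sets above the median tested alone, Il10ra and Il6ra passed and Il7r did not, and in every other setting none of the 3 passed. In all 15 settings, namely the 1 reported here and 14 others, the 3 genes kept their direction and an unadjusted p under 0.05.

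**Figure D2:**
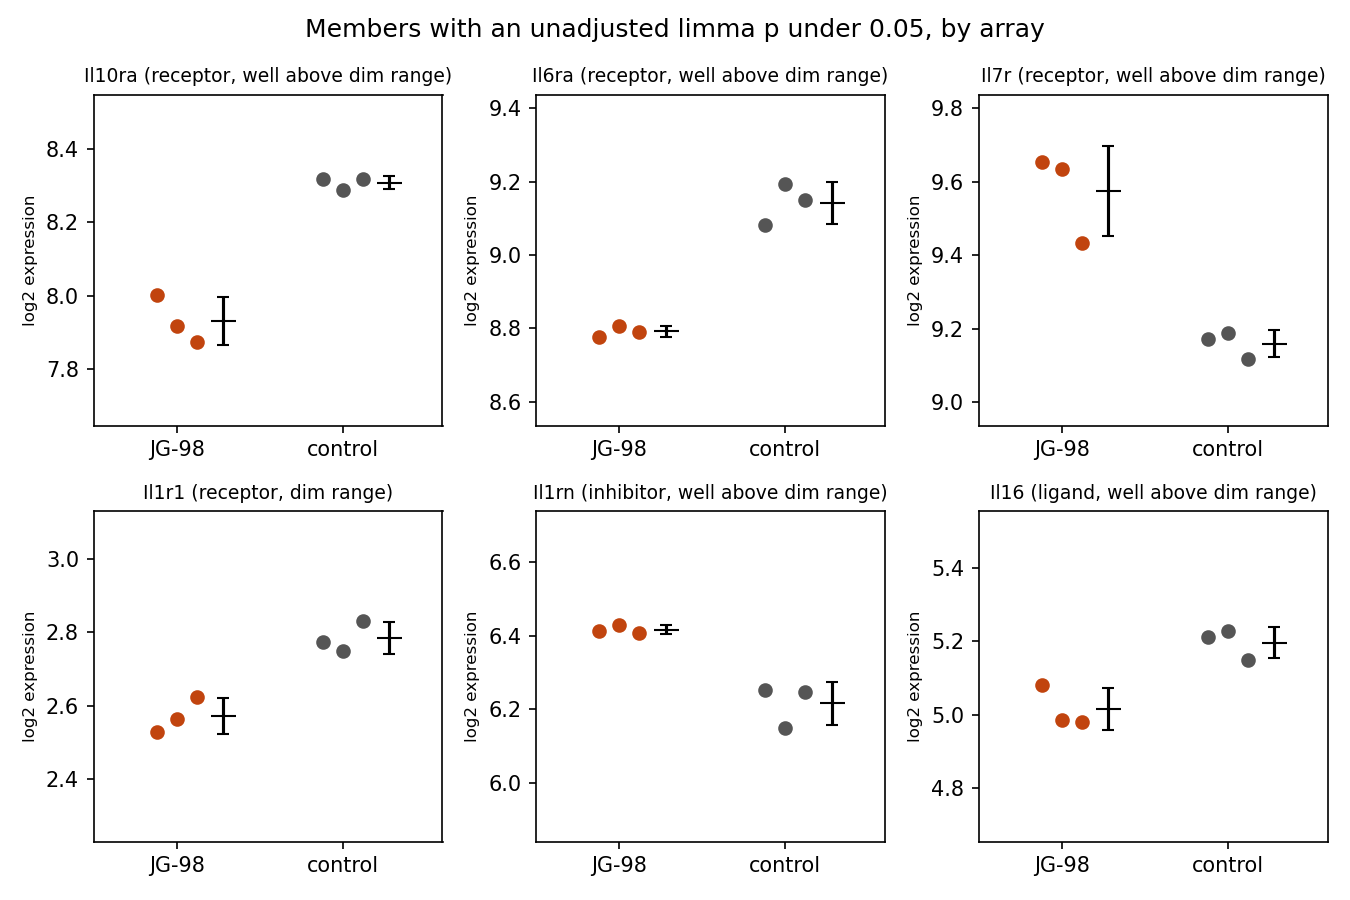
Log2 expression on each array of the 6 members with an unadjusted limma p under 0.05, JG-98 left and control right in each panel. Points are arrays, and the bar beside them is the mean ± SD of 3. Each vertical axis spans 0.9 log2 units and does not start at 0, and in all 6 panels the groups do not overlap.

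The upstream sequences of Il7r and Il6ra are shown because these are the chains with the leading higher and lower difference that RefSeq's promoter table (build GRCm38.p6) holds, each with 1 start. They are the 250 bases before the transcript start, 5′ to 3′ on the gene's strand, with capitals for matches to the motifs named below.
Il7r, chr15:9529877-9530126, minus strand: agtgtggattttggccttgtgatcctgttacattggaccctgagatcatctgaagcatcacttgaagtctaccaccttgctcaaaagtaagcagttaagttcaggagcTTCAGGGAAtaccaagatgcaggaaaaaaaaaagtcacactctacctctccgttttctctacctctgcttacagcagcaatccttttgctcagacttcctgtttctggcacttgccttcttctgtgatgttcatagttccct
Il6ra, chr3:89913197-89913446, minus strand: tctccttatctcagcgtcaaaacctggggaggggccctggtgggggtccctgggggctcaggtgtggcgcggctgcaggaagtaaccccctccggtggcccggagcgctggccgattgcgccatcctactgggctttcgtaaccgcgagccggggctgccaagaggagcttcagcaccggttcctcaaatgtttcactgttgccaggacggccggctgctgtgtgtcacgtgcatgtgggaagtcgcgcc

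Both strands of this window were searched for the STAT element TTCNNNGAA, the C/EBP-ATF composite TGATGNAAT, the AP-1 element TGANTCA and the PU.1 core GAGGAAG. Il7r held 1 match, TTCAGGGAA, 142 to 134 bases before the start, a STAT motif found in 7.02% of the 32851 promoters of the table. Il6ra held no match, which says only that these letters are not in this window. The C/EBP-ATF composite stood in 0.816% of all promoters, the AP-1 element in 6.75% and the PU.1 core in 10.6%. Among the members described below, 1 start each of Il1rn and Il16 held an AP-1 match and Il12rb2 a STAT match. The table had a promoter for 65 of the 82 members. It had 1 for 15 of the 20 members that are well above the dim range or have an unadjusted limma p under 0.05. Matches are reported for these 15 only.

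Among the other receptor chains well above the dim range, none had an unadjusted p under 0.05. Il13ra1, which pairs with Il4ra to form the IL-4 and IL-13 receptor of non-lymphoid cells, was at 6.58, 6.67 and 6.46 on the JG-98 arrays, against 6.45, 6.18 and 6.38 on the control arrays. The groups just failed to overlap, and the difference was 0.23 ± 0.097 (limma adjusted p = 0.60). Il4ra was at 8.33, 8.25 and 8.49 on the JG-98 arrays and at 8.47, 8.51 and 8.48 on the control arrays, with JG-98 replicate 3 inside the control range. Its difference was -0.13 ± 0.080, with a 95% interval of -0.32 to 0.06.

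Il1rap is the accessory chain that receptors for IL-1, IL-33 and the IL-36 cytokines need to signal. It was at 5.50, 5.55 and 5.35 on the JG-98 arrays, against 5.66, 5.59 and 5.69 on the control arrays, without overlap. The difference was -0.18 ± 0.078 (limma adjusted p = 0.62). Il12rb2, the signalling chain of the IL-12 receptor, was at 7.17, 7.19 and 6.95 on the JG-98 arrays and at 7.23, 7.21 and 7.29 on the control arrays. Its groups also did not overlap, by a gap smaller than the spread within either group, and the difference was -0.14 ± 0.086 (limma adjusted p = 0.73).

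The remaining 3 overlapped. Il17ra, the chain common to receptors of the IL-17 family, was at 7.39, 7.34 and 7.49 on the JG-98 arrays and at 7.63, 7.42 and 7.58 on the control arrays. Il21r, which binds IL-21, was at 7.65, 7.60 and 7.63 on the JG-98 arrays and at 7.69, 7.58 and 7.61 on the control arrays, with a difference of -0.0012 and a 95% interval of -0.16 to 0.15. Il3ra, the alpha chain for IL-3, was at 5.47, 5.53 and 5.76 on the JG-98 arrays and at 5.53, 5.59 and 5.56 on the control arrays.

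**Figure D3:**
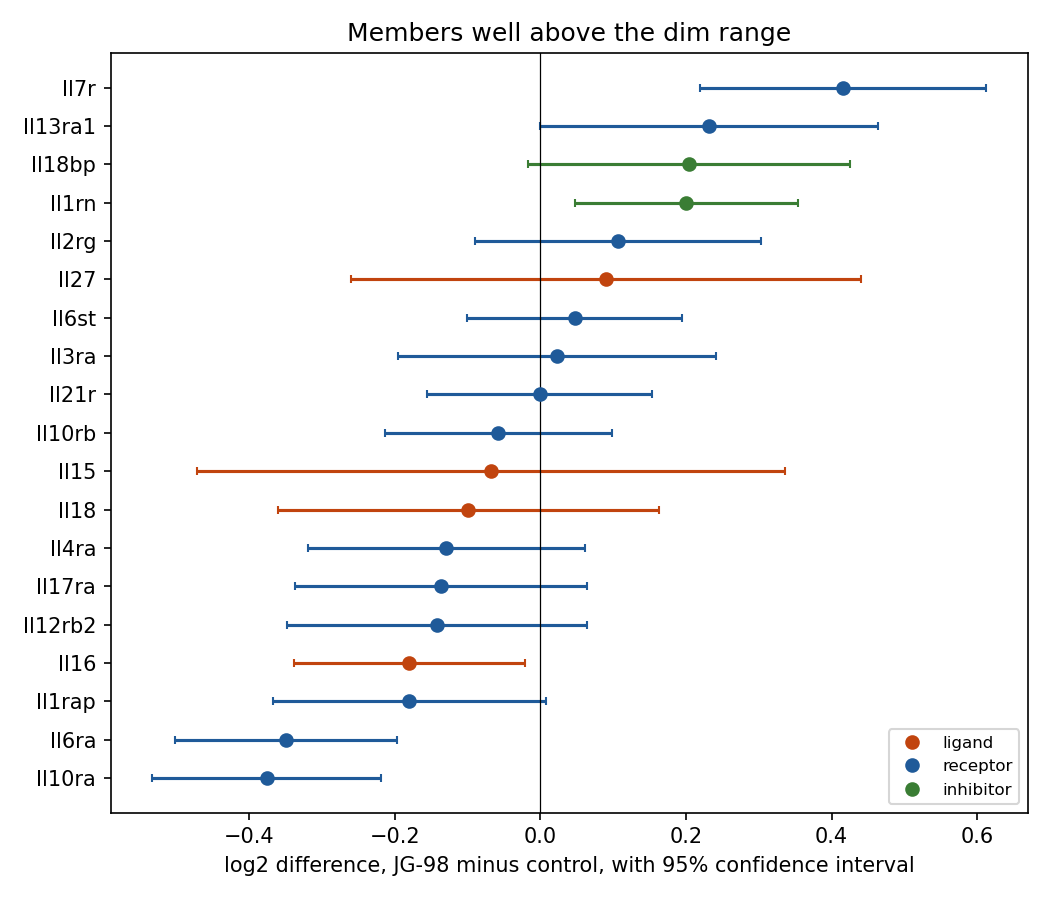
Log2 difference, JG-98 minus control, of the 19 members well above the dim range, with the 95% confidence interval of the limma fit (not adjusted for the number of tests). Blue marks receptors, red ligands and green inhibitors. The intervals of Il7r and Il1rn lie above 0 and those of Il16, Il6ra and Il10ra below it.

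For 4 receptors with both chains clear of the dim range, the log2 difference between the chains within each array shows whether they shifted unequally. The 4 pairs were chosen after their values were seen, so no test is given, and the sign of a value within an array reflects probe binding as well as transcript. Il7r, Il6ra and Il10ra had already been named as the leading differences, so the separation of their pairs follows in part from that choice. Il6ra minus Il6st was -0.70, -0.71 and -0.71 on the JG-98 arrays, against -0.36, -0.31 and -0.27 on the control arrays. Il10ra minus Il10rb was -2.84, -2.98 and -2.90 on the JG-98 arrays, against -2.60, -2.61 and -2.56 on the control arrays. In both receptors the ligand-binding chain lay lower relative to its shared partner on every JG-98 array.

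Il7r minus Il2rg ran the other way, at 0.61, 0.40 and 0.44 on the JG-98 arrays, against 0.16, 0.19 and 0.17 on the control arrays. Il13ra1 minus Il4ra was -1.75, -1.59 and -2.02 on the JG-98 arrays and -2.02, -2.32 and -2.10 on the control arrays. The last pair overlapped through JG-98 replicate 3, which lay just below control replicate 1. Il3ra and its shared beta chain Csf2rb, also both well above the dim range, were not among these pairs. Il3ra differed by 0.02 ± 0.091 and Csf2rb by -0.31 ± 0.062, so there the shared chain lay lower with JG-98 and the ligand-binding chain did not. The Csf2rb paralogue Csf2rb2, also well above the dim range, differed by -0.18 ± 0.078 without overlap (limma adjusted p = 0.63). Other combinations of chains at that level were left out too, among them Il21r with Il2rg and Il4ra with Il2rg. Il21r differed by -0.0012, Il4ra by -0.13 ± 0.080 and Il2rg by 0.11 ± 0.082.

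**Figure D4:**
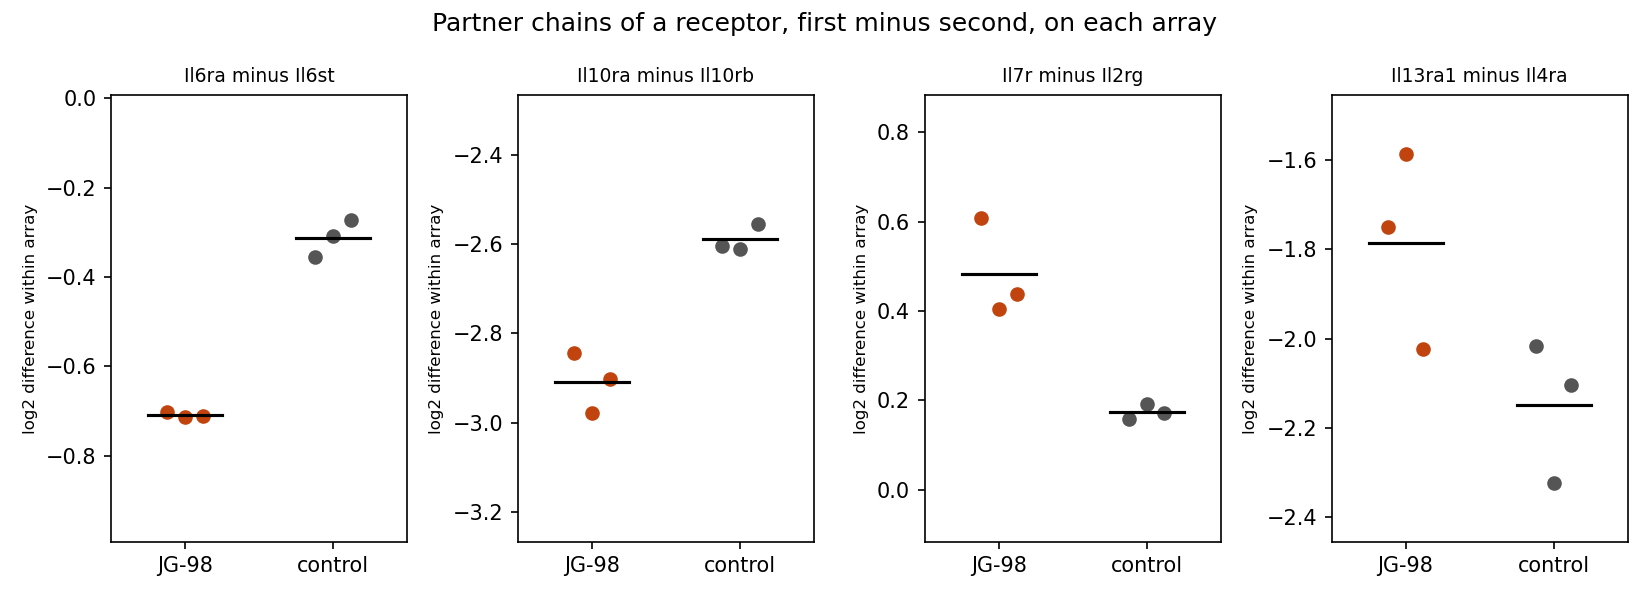
Log2 difference between the chains of 4 receptors within each array, first minus second as named, JG-98 left and control right. Points are arrays, lines are means of 3, and each vertical axis spans 1 log2 unit. The groups separate for Il6ra minus Il6st, Il10ra minus Il10rb and Il7r minus Il2rg, and overlap for Il13ra1 minus Il4ra.

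The differences of the 4 ligands well above the dim range ran from -0.18 to 0.09. Il16, a cytokine cut from a larger precursor that draws CD4-bearing cells, was at 5.08, 4.99 and 4.98 on the JG-98 arrays, against 5.21, 5.23 and 5.15 on the control arrays, without overlap. The difference was -0.18 ± 0.066 (limma adjusted p = 0.54). It was -0.16 without JG-98 replicate 3, and an unadjusted p under 0.05 held in 8 of 15 settings, that one not among them.

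Il15, which sustains NK and memory T cells, was at 6.53, 6.83 and 6.15 on the JG-98 arrays and at 6.63, 6.48 and 6.61 on the control arrays. Its JG-98 values spanned the whole control range, and the difference of -0.07 ± 0.17 became 0.11 without JG-98 replicate 3. Il18, a precursor that caspase-1 activates, was at 6.47, 6.41 and 6.14 on the JG-98 arrays and at 6.56, 6.39 and 6.38 on the control arrays. Il27 encodes the p28 subunit that joins Ebi3 to form IL-27, and was at 5.90, 5.95 and 6.22 on the JG-98 arrays and at 5.71, 5.88 and 6.20 on the control arrays. Both overlapped between groups. Il18r1, which binds IL-18, was in the dim range with a difference of 0.02 ± 0.091, and Ebi3 was well above it with a difference of -0.07 ± 0.061.

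Both inhibitors well above the dim range were higher on each JG-98 array than on any control array. Separation in this direction held in 11.3% of all probe sets at that level. The 2 dim inhibitors, Il1f5 and Il22ra2, had differences below 0, at -0.09 ± 0.10 and -0.10 ± 0.17. Il1rn, the IL-1 receptor antagonist, was at 6.41, 6.43 and 6.41 on the JG-98 arrays, against 6.25, 6.15 and 6.25 on the control arrays. The difference was 0.20 ± 0.064, or 1.15-fold higher (limma adjusted p = 0.49), and an unadjusted p under 0.05 held in 13 of 15 settings. Il18bp, a secreted protein that captures IL-18, was at 5.54, 5.84 and 5.78 on the JG-98 arrays, against 5.52, 5.52 and 5.50 on the control arrays. Its JG-98 replicate 1 lay close to the controls, and the difference was 0.20 ± 0.092 (limma adjusted p = 0.64).

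The ligands Il1a and Il1b and the receptors Il1r1, Il1r2 and Il1rl1 of the IL-1 family were in the dim range. Il1b, the main inflammatory ligand, was at 2.61, 2.47 and 2.71 on the JG-98 arrays and at 2.46, 3.10 and 2.59 on the control arrays, and Il1a at 2.80 to 3.06 on the JG-98 arrays and 2.61 to 2.96 on the control arrays. Il1r1, the signalling receptor, was at 2.53, 2.56 and 2.62 on the JG-98 arrays, against 2.77, 2.75 and 2.83 on the control arrays. Its groups did not overlap, with a difference of -0.21 ± 0.065 (limma adjusted p = 0.48), but at these levels a transcript cannot be told from background. The decoy receptor Il1r2, at 2.40 to 2.67 on the JG-98 arrays and 2.36 to 2.66 on the control arrays, and the IL-33 receptor Il1rl1, at 3.64 to 3.84 on the JG-98 arrays and 3.56 to 3.78 on the control arrays, overlapped.

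Between the dim range and the limit lay 5 ligands (Il17d, Il17c, Il25, Il1f10 and Il13), 5 receptors (Il15ra, Il11ra1, Il27ra, Il12rb1 and Il18rap) and Il4i1b, a secreted amino acid oxidase. Of these 11, none had an unadjusted p under 0.05 or separated groups, where 5.07% and 8.41% of all probe sets at that level did. Their differences ran between -0.16, for Il15ra, and 0.17, for Il25. Il15ra, which presents IL-15 to neighbouring cells, was at 4.71, 4.85 and 4.63 on the JG-98 arrays and at 4.81, 4.91 and 4.96 on the control arrays. Il11ra1 has a near-identical neighbour in the mouse genome, so its value may mix 2 genes.

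In the dim range were 28 ligands, at 6-array means of 1.05 to 3.76. They include the inflammatory Il6, Il1a, Il1b, Il12a, Il12b and Il23a, the inhibitory Il10, the T helper cytokines Il2, Il4, Il5, Il9, Il17a, Il17f, Il21 and Il22, the growth factors Il3, Il7, Il11 and Il34, and Il17b, Il19, Il20, Il24, Il31 and Il33. The IL-36 genes Il1f6, Il1f8 and Il1f9 were dim too. None had an unadjusted p under 0.05, beside 5.13% of all dim probe sets. Il20 alone had all JG-98 values, 2.28 to 2.39, above all control values, 2.17 to 2.25, which is 3.57% of the dim ligands, beside 7.67% of all dim probe sets without overlap. For Il24 the difference was 0.21 ± 0.11 and for Il10 it was -0.20 ± 0.12, the extremes among dim ligands.

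Also dim were 21 receptors. These were the lymphocyte chains Il2ra, Il2rb, Il9r and Il23r, the IL-5 and IL-18 receptor chains Il5ra and Il18r1, the IL-13 decoy Il13ra2, 4 of the IL-17 receptors (Il17rb, Il17rc, Il17rd and Il17re), Il20ra, Il20rb, Il22ra1, Il31ra, Il1r1, Il1r2, Il1rl1 and Il1rl2, and the neuronal Il1rapl1 and Il1rapl2. Il1r1 was the 1 of these that had an unadjusted p under 0.05. The dim inhibitors Il1f5 and Il22ra2 and the noncoding Il1bos, which lies opposite Il1b, overlapped between groups.

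Set side by side, ligands and receptors had medians near 0. The median log2 difference, JG-98 minus control, was 0.014 for the 39 receptors and -0.0094 for the 37 ligands, beside 0.00080 for all probe sets. Receptors ran from -0.38 to 0.42 and ligands from -0.20 to 0.21. At an unadjusted p under 0.05 there were 4 of 39 receptors (10.3%) and 1 of 37 ligands (2.70%), beside 8.32% of all probe sets. Among members well above the dim range it was 3 of 13 receptors (23.1%) and 1 of 4 ligands (25%), beside 12.8% of all probe sets at that level. No test of receptors against ligands was made.

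Of 22 listed JAK, STAT, SOCS and related genes, which carry or restrain signals from most of these receptors, 18 lay well above the dim range. Socs2 was in the dim range, and Socs1, Socs3 and Cish lay between it and the limit. In this list, 0 of 22 passed limma at an adjusted p under 0.05. At an unadjusted p under 0.05, 0 were higher and 1 was lower (4.55% of the list, beside 12.8% of all probe sets well above the dim range and 8.32% of all), and the median was -0.08. That gene was Stat5a, a transducer of IL-2, IL-3 and IL-7 signals, at 6.77, 6.77 and 6.84 on the JG-98 arrays, against 6.93, 7.03 and 7.07 on the control arrays (difference -0.21 ± 0.070, limma adjusted p = 0.50). Stat2, Pias1 and Socs7, the next by p, differed by -0.14, -0.14 and 0.13. Of 18 genes for IL-1 receptor signalling and IL-1 processing, 17 lay well above the dim range and none passed at an adjusted p under 0.05. Irak2, a kinase that sustains IL-1 and Toll-like receptor signals, was the 1 (5.56% of the list, beside the same 12.8% and 8.32%) with an unadjusted p under 0.05, at 7.97, 7.89 and 7.96 on the JG-98 arrays, against 7.82, 7.76 and 7.73 on the control arrays (difference 0.17 ± 0.064, limma adjusted p = 0.56). Pycard, Irak3 and Tab1 followed at -0.10, -0.10 and -0.11.

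Of 20 partner ligands and chains without an Il symbol, 12 lay well above the dim range and none passed at an adjusted p under 0.05, with 2 higher and 2 lower at an unadjusted p under 0.05 and a median of -0.04. That is 20% of the list, beside 12.8% of all probe sets well above the dim range and 8.32% of all. Csf1 encodes a growth factor that uses the same receptor as Il34. It was at 6.02, 5.99 and 5.68 on the JG-98 arrays, against 5.11, 4.95 and 4.84 on the control arrays, and the difference of 0.93 ± 0.12 exceeded that of any interleukin family member (limma adjusted p = 0.13). Il34 was in the dim range, at 3.49, 3.61 and 3.68 on the JG-98 arrays and 3.57, 3.52 and 3.88 on the control arrays.

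Csf2rb, the beta chain that IL-3, IL-5 and GM-CSF receptors share, was at 8.79, 8.78 and 8.78 on the JG-98 arrays, against 9.03, 9.11 and 9.13 on the control arrays. It has a close paralogue, Csf2rb2, with which probes may be shared. The difference was -0.31 ± 0.062 (limma adjusted p = 0.29). Among users of gp130, 2 lay in opposite directions, the ligand Osm at 0.27 ± 0.071 and the receptor chain Lifr at -0.23 ± 0.069 (limma adjusted p = 0.41 and 0.46).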

How the data were processed

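The deposited table holds a log2 expression value for each probe set on each array. The submitters' processing notes list RMA, affy and R 2.15.1 and do not say what each was used for. RMA, as generally defined, normalizes arrays against each other, so a shift of all genes would be removed, and it compresses differences between dim probe sets. The probe sets' build, not given in the sources used here, was not needed.

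Each probe set ID is an Entrez number. The platform annotation named 23185 of 25206 probe sets and a RefSeq gene table (GRCm38.p6, used for names) 555 more by that number, among them Il2rg, Il1rl1 and Il11ra1; 1466 had no name.

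JG-98 was compared with control by limma 3.58.1 under R 4.3.3, two-sided, through lmFit and eBayes with 4 residual and 2.59 prior degrees of freedom and Benjamini-Hochberg adjustment over all probe sets. SE is the moderated one. Tried beside this fit were array weights (statmod 1.5.0), eBayes with a trend or a robust prior, centring on medians or renewed quantile normalization, removal of dim probe sets at 2 levels, a replicate block, and each array left out in turn. The number of arrays limits the precision. Every member well above the dim range or with an unadjusted p under 0.05 is given by array. Their partners are given by array, by difference or by name only, and some, such as Crlf2, are not described. Of each pathway list, the 4 genes with the smallest p above the dim range are named. Roles, lists and members were chosen with earlier results of these data known.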

Additional observations from a re-analysis of the deposited data

How the results depend on the processing

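The direction of Il7r, Il6ra, Il10ra, Il1rn, Il16 and Il1r1 was kept in every setting that tested them. The number of members past an adjusted p of 0.05 was 0 with all arrays, 2 when limited to probe sets above the median, 3 when limited to those well above the dim range, 3 with an intensity trend, and 0 in each of the other settings, leaving out any 1 array included. The count over all probe sets was 10, and became 90, 188, 254 and 25 with the lower filter, the higher filter, the trend and array weights, and 0 to 5 without 1 array. The number of members well above the dim range and higher at an unadjusted p under 0.05 was 2, 1 after median centring, 4 with either filter, and 1 to 3 without 1 array. The number of ligands at any level with an unadjusted p under 0.05 in either direction was 1 (Il16, lower), 0 after median centring, 0 with the trend and 0 to 3 without 1 array (3 without control replicate 3). The median difference ran from -0.079 to 0.042 for ligands and from -0.034 to 0.042 for receptors without 1 array.

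With the replicate number as a replicate block, 0 probe sets passed (smallest adjusted p among members 0.67), while Il7r, Il6ra and Il10ra kept an unadjusted p of 0.0038, 0.0055 and 0.0047. Deviations of same-numbered arrays correlated at 0.095, -0.13 and 0.10, and only JG-98 replicate 1 correlated best with its own number, so the numbers are not treated as pairs.

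Of the 20 genes followed, 5 changed sign, with differences of at most 0.099 with all arrays. Il15 was at 0.0019 with array weights and -0.23 to 0.11 without 1 array, positive without JG-98 replicate 3, and Il18 at -0.16 to 0.0015, positive without the same array. Il21r was at 0.0048 after a further quantile normalization, 0.013 with array weights and -0.023 to 0.029 without 1 array. Il27 was at -0.013 with array weights and -0.019 to 0.22 without 1 array, and Il3ra at -0.053 and -0.064 to 0.081.

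Taking the 99th percentile of chemosensory genes gave 15 members well above the dim range in place of 19, the median of all probe sets 27 (7 ligands in place of 4) and a margin of 0.5 gave 25. The 52 dim members cannot be told from background.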
